A study of Mus musculus with 9 samples.

Results

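The genes described here are 42 antioxidant and detoxification genes of the mouse: the transcription factor NRF2 with its inhibitor, enzymes that NRF2 is known to induce, and related aldo-keto reductases, aldehyde dehydrogenases and peroxidases. They were found by symbol among the 50813 genes listed in the deposited counts. The libraries came from cultured LLC cells, a Lewis lung carcinoma line that stably expresses luciferase. WT cells were compared with CD47 KO clone E3 and CD47 KO clone E5, with 3 replicates of each. The clones were expanded after electroporation of Cas9 ribonucleoprotein against Cd47, which encodes a surface receptor known as an inhibitor of phagocytosis. WT cells were 1 line and each KO was 1 clone, so the effect of the edit and the differences that arise on cloning cannot be told apart.

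NRF2, encoded by Nfe2l2, is held in the cytoplasm by KEAP1, which delivers it to a ubiquitin ligase for degradation. Oxidants and electrophiles modify KEAP1, and NRF2 then accumulates, pairs with a small MAF protein and binds antioxidant response elements near its target genes. Those targets make and recycle glutathione and thioredoxin, supply NADPH, and reduce or conjugate reactive compounds. In lung cancer the pathway is known for activating mutations that keep it switched on.

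Total counts per library ranged from 44257404 to 55095219. Of the genes listed, 14593 passed the filter on low counts and were tested, among them 35 of the 42 members. Aldh3a1 reached the level of that filter in the E5 libraries alone, and Gstt1 in the 3 WT libraries and 2 of clone E3, so a difference between lines was part of how these 2 came to be tested. Cd47, the targeted gene, was at 187, 179 and 182 CPM (counts scaled to library size) in the WT libraries, at 47.4, 36.8 and 49.6 CPM in clone E3 and at 15.5, 18.6 and 18.1 CPM in clone E5. Vim and Fn1, mesenchymal genes, were high in all lines, and Epcam, Nkx2-1 and Sftpc had no count in any library. Krt8 and Krt18 were expressed in all lines, with every E3 library below and every E5 library above WT. Of the immune markers, Cd68 made up most of a summed level of 2.68 to 3.47 CPM, and the endothelial markers summed to 0.18 to 0.48 CPM. The fibroblast markers summed to 2720 to 4541 CPM, nearly all from Col3a1. Replicate 3 of clone E3 stood apart from the other libraries. Genes of ribosomal proteins took 8.33% of its counts, against 4.72% to 5.92% in the other 8 libraries. Called values that moved by over 1.5 times on leaving this library out, and members whose call against WT in clone E3 changed, are also given without it.

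A gene is called here at an adjusted p under 0.05 in the quasi-likelihood test of edgeR, adjusted over all genes tested by the Benjamini-Hochberg method, and is past the fold threshold when its absolute log2 fold change is also above 1. The members were chosen with earlier results of these data known, so no count of members set beside a background is a test. In clone E3, 15 of the 35 tested members were called against WT, where 30.5% of all tested genes were. Of these, 13 were higher, where 15.7% of all tested genes were called higher, and 2 were lower, where the background was 14.7%. The members past the fold threshold were Akr1c14, Nqo1, Gsta4 and Ephx1, which were higher, and Slc7a11, which was lower, 5 in all. The background was 9.82%, with 5.43% higher and 4.39% lower. The median log2 fold change of the tested members was 0.25, against 0.01 over all tested genes. All E3 libraries lay on one side of all WT libraries for 20 of the 35, 17 above and 3 below, where 45.4% of all tested genes did so, 22.4% above and 23.0% below. Without replicate 3 of clone E3, 19 members were called, 13 higher and 6 lower, and the background was 43.2%.

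In clone E5, 14 of the 35 tested members were called against WT, beside a background of 20.6%. Of these, 11 were higher, where 8.96% of all tested genes were called higher, and 3 were lower, where the background was 11.7%. Past the fold threshold were Akr1c14, Nqo1, Aldh3a1, Cbr3, Gsta4 and Gstm1, which were higher, and Gstt1, which was lower, 7 in all. This includes Aldh3a1 and Gstt1, which passed the filter only with the counts of the line where they were high. The background was 8.21%, with 2.69% higher and 5.52% lower. The median log2 fold change of the tested members was 0.26, against -0.002 over all tested genes. The E5 and WT libraries did not overlap for 26 of the 35, 20 above and 6 below, where 55.4% of all tested genes did so, 27.0% above and 28.4% below. Both comparisons use the same WT libraries, so they are not independent of each other. The count depended on replicate 3 of clone E3, which enters through the shared estimate of the spread: without it, 24 members were called in clone E5 and the background was 42%. Without WT replicate 2, WT replicate 3, E5 replicate 1 or E5 replicate 2 the count was 9, beside backgrounds of 11.9% to 12.9%. The plot of fold changes by role shows both clones.

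**Figure D1:**
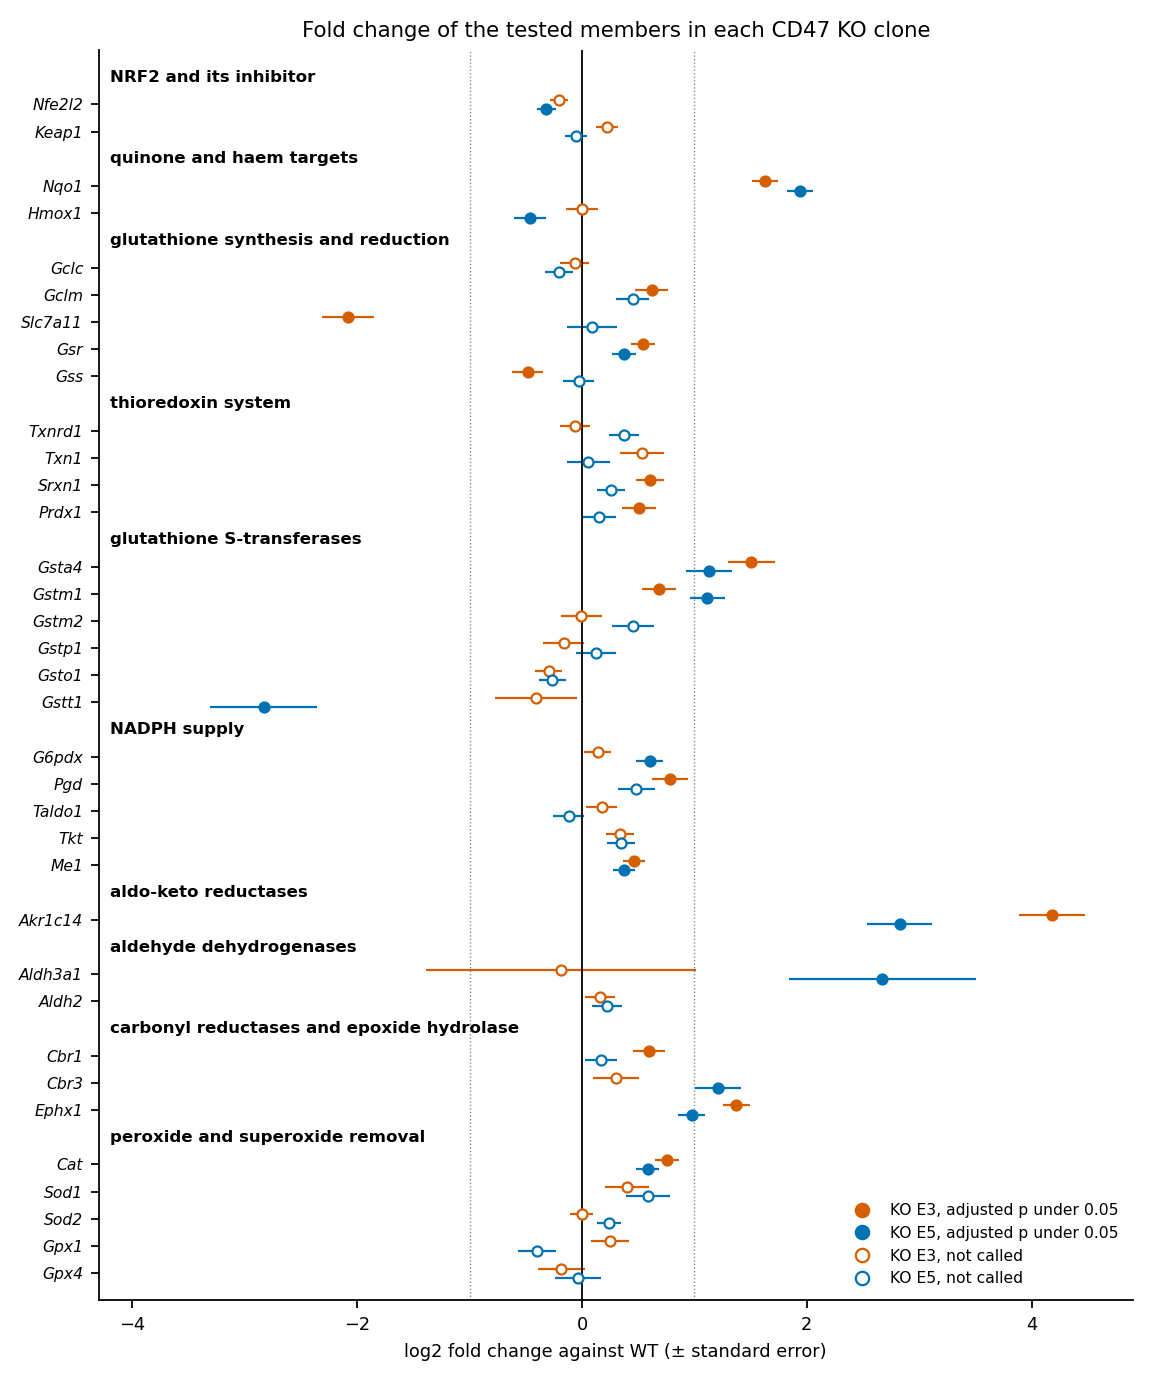
Log2 fold change against WT (x axis) of the 35 tested members, grouped by role (y axis), in KO clone E3 (orange) and KO clone E5 (blue); bars are standard errors from edgeR, filled points have an adjusted p under 0.05, and dotted lines mark a log2 fold change of -1 and 1. Akr1c14 lies farthest to the right in both clones, at 4.18 and 2.83, Slc7a11 lies at -2.08 for clone E3 and at 0.09 for clone E5, and Gstt1 lies at -2.83 in clone E5.

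Nfe2l2 was among the more abundant members in WT cells, with a mean level of 62.1 CPM per kilobase of exon, rank 6 of the 42. Its level was 333, 342 and 342 CPM in the WT libraries, 299, 284 and 299 CPM in clone E3 and 271, 279 and 267 CPM in clone E5. Both clones lay below every WT library, by a small amount. Its log2 fold change was -0.21 (SE 0.08, edgeR adjusted p = 0.0799) in clone E3 and -0.32 (SE 0.08, edgeR adjusted p = 0.0198) in clone E5. The call in clone E5 was lost on leaving out any single WT or E5 replicate, with edgeR adjusted p-values of 0.0585 to 0.0904. Without replicate 3 of clone E3, Nfe2l2 was called lower in that clone too, at -0.22. Keap1, which targets NRF2 for degradation, was at 64.7 ± 3.56 CPM in WT cells, 75.2 ± 3.83 in clone E3 and 62.3 ± 5.39 in clone E5 (SD, n = 3), and was called in neither clone (edgeR adjusted p = 0.116 and 0.749).

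Of the 13 tested regulators and partners of NRF2 on a wider list, 2 were called higher and 3 lower in clone E3, and 2 were called lower in clone E5, beside backgrounds of 15.7% and 14.7% for clone E3 and of 11.7% for clone E5. Nfe2l1, which encodes NRF1, a related factor that binds the same kind of element, fell by 1.40 on the log2 scale in clone E3 (SE 0.13, edgeR adjusted p = 4.8e-05) and by 0.65 in clone E5 (SE 0.13, edgeR adjusted p = 0.00456). Its level was 397, 427 and 421 CPM in the WT libraries, 182, 154 and 138 CPM in clone E3 and 228, 279 and 285 CPM in clone E5, so the 3 lines did not overlap. Mafg, a small MAF partner, was at 209 ± 7.15 CPM in WT cells, 136 ± 6.24 in clone E3 and 174 ± 3.84 in clone E5 (SD, n = 3) and was called lower in both clones (edgeR adjusted p = 0.000466 and 0.0494), the call in clone E5 being lost without any one WT or E5 replicate (edgeR adjusted p = 0.0961 to 0.18). Dpp3, which encodes a peptidase that binds KEAP1, rose in clone E3 by 0.70 on the log2 scale (SE 0.11, edgeR adjusted p = 0.000872). Btrc, a ubiquitin ligase adaptor for NRF2, was called higher in clone E3 at 0.33, a call lost without any one WT replicate. Gsk3b, a kinase that marks NRF2 for that ligase, fell in clone E3 by 0.72. Its 3 libraries there were at 109, 121 and 61.3 CPM, the lowest being replicate 3, and without that library the fall was smaller, at -0.48 (edgeR adjusted p = 0.000783). The call was lost without any one WT replicate. Bach1, a repressor at the same elements, and Maff, Mafk, Cul3, Rbx1, Sqstm1 and Trim16 were called in neither clone, with log2 fold changes from -0.36 (Sqstm1) to 0.26 (Maff). Bach2, a repressor of the same family at under 1.2 CPM, was at 0.69 for clone E3 and at -1.55 for clone E5 on the log2 scale against WT, called in neither.

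The letters of an antioxidant response element core, TGACNNNGC on either strand, were searched in the RefSeq promoter windows of GRCm38.p6, each 300 bases long around a start site. A window was given for 35 members, and 9 of them held the letters (25.7%), against 14.0% of the 27025 genes with a window and 12.4% of the 32851 windows. Hmox1, Gclc, Gsr, Gsta4, Aldh1a3, Aldh3a1 and Aldh2 had no window. The matches follow, each in the direction of its gene with 10 flanking bases on each side, because these are the members for which the window of a start site holds the letters that NRF2 is known to read. Capitals mark the match, and coordinates are those of the same bases in GRCm39.
Nfe2l2 (chr2:75535229-75535257, minus strand): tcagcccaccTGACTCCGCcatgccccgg
Srxn1 (chr2:151947462-151947490, plus strand): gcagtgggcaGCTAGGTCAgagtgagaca
Gclm (chr3:122039062-122039090, plus strand): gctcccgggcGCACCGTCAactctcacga
Prdx1 (chr4:116542653-116542681, plus strand): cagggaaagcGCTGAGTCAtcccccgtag
Pgd (chr4:149250518-149250546, minus strand): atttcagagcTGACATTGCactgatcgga
Me1 (chr9:86577955-86577983, minus strand): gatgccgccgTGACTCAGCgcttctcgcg
Txnrd1 (chr10:82694938-82694966, plus strand): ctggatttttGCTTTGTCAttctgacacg
Sod1 (chr16:90017584-90017612, plus strand): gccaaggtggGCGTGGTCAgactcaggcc
G6pdx (chrX:73472525-73472553, minus strand): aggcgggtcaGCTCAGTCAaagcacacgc

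Prdx1 and Me1 carried the same 9 letters, read on opposite strands. The match lies at bases -133 to -125 from the start site in Prdx1 and at bases -6 to 3 in Me1. The start sites used for Srxn1, Prdx1, Pgd, Me1, Txnrd1, Sod1 and G6pdx lie inside the listed span of the gene. The distance was largest for Txnrd1, whose listed span begins at 82669785. The bases printed for Srxn1, Me1, Sod1 and G6pdx lie wholly within annotated exons, and those for Pgd in part. Of these 9 genes, Srxn1, Gclm, Prdx1, Pgd and Me1 were called higher in clone E3, Me1 and G6pdx were called higher in clone E5, and Nfe2l2 was called lower in clone E5. The background was 15.7% called higher in clone E3, 8.96% called higher in clone E5 and 11.7% called lower there. The windows of Nqo1, Akr1c14, Gstm1, Ephx1, Slc7a11, Cbr3 and Gstt1, each past the fold threshold in at least 1 comparison, do not hold these letters. An element outside the 300 bases of a window would not have been found, so these genes may still have one.

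Nqo1 (ENSMUSG00000003849, chromosome 8 from 108114857 to 108129838 in GRCm39), a quinone reductase and a standard readout of NRF2, was higher in both clones. Its level was 31.4, 37.8 and 36.0 CPM in the WT libraries, 105, 100.4 and 119 CPM in clone E3 and 148, 134 and 121 CPM in clone E5. Every KO library lay above every WT library. The fold change was 3.09 in clone E3 (log2 1.63, SE 0.12, edgeR adjusted p = 1.33e-05) and 3.83 in clone E5 (log2 1.94, SE 0.12, edgeR adjusted p = 2.01e-06). The clones did not differ beyond the threshold, at a log2 difference of 0.31 (E5 minus E3, SE 0.12, edgeR adjusted p = 0.0631). Per kilobase of exon, Nqo1 was at 12.8 CPM in WT cells, 39.5 CPM in clone E3 and 48.9 CPM in clone E5, and moved from rank 19 among the members to ranks 14 and 9.

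Hmox1, which breaks down haem and is induced by NRF2, did not follow. Its level was 30.5, 41.9 and 41.5 CPM in the WT libraries, 36.6, 34.6 and 42.7 CPM in clone E3 and 27.4, 30.4 and 25.0 CPM in clone E5. The WT and E3 libraries overlapped, and clone E5 lay below both. Its log2 fold change in clone E5 was -0.46 (SE 0.14, edgeR adjusted p = 0.0445). That call was lost without WT replicate 2 or 3, E3 replicate 1, or E5 replicate 1, 2 or 3, with edgeR adjusted p-values of 0.0546 to 0.165.

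The plot by library shows the 9 members past the fold threshold in at least 1 of the 3 comparisons.

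**Figure D2:**
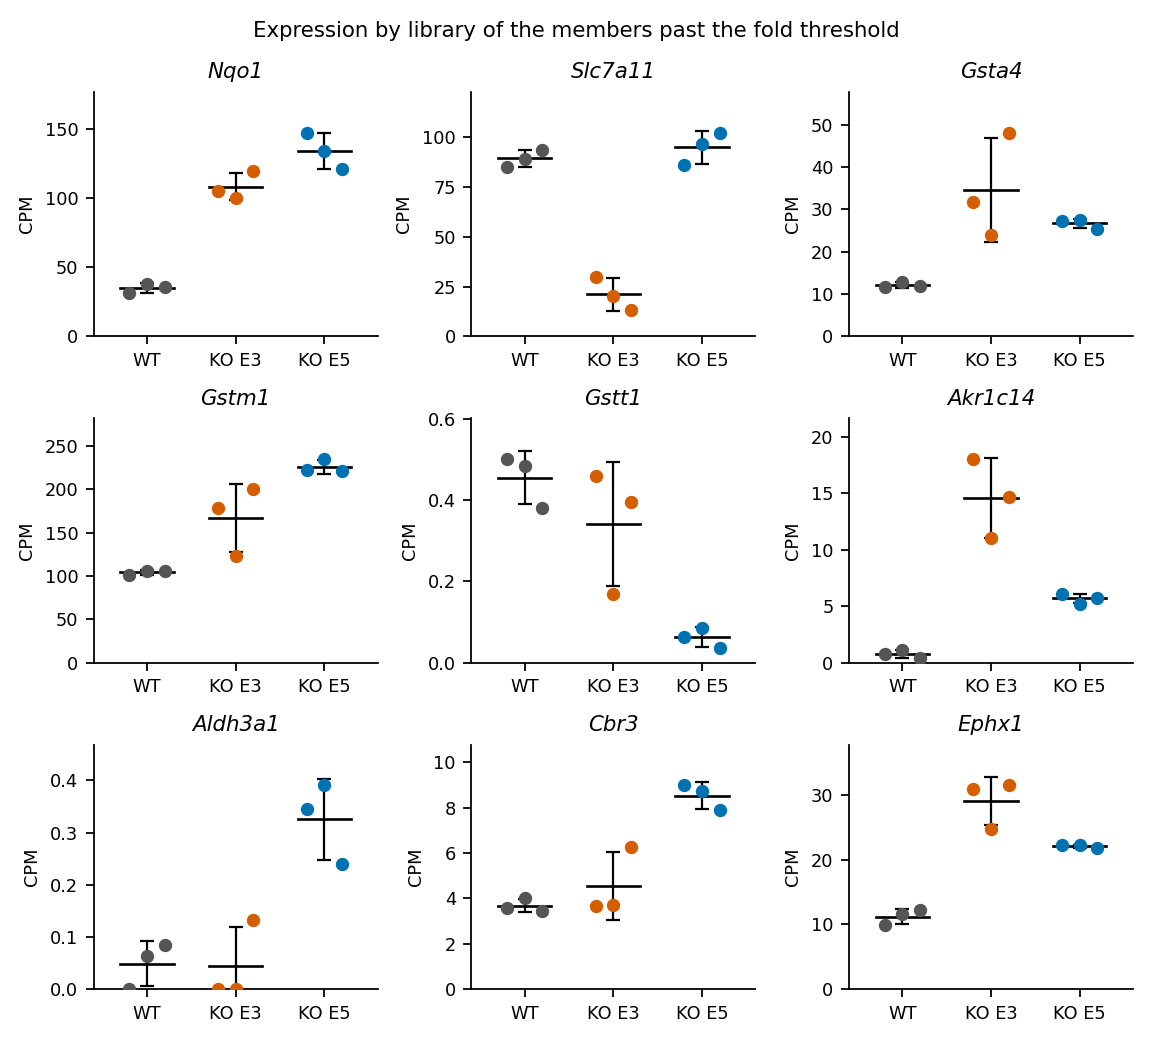
CPM (y axis, from 0) in each of the 3 libraries of WT cells, KO clone E3 and KO clone E5 (x axis) for the 9 members past the fold threshold; points are libraries, horizontal lines are means and bars are SDs. Nqo1, Gsta4, Gstm1, Akr1c14 and Ephx1 are above WT in every library of both clones, Slc7a11 is low in clone E3, and Cbr3 and Aldh3a1 are highest and Gstt1 lowest in clone E5.

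In the synthesis and recycling of glutathione, the largest change was in Slc7a11 (ENSMUSG00000027737, chromosome 3 from 49846975 to 50398063), the transport subunit of the antiporter that imports cystine. It was at 85.3, 89.3 and 93.9 CPM in the WT libraries, 29.6, 20.4 and 13.3 CPM in clone E3 and 86.1, 96.5 and 103 CPM in clone E5. Clone E3 lay below all other libraries, while WT and clone E5 overlapped. The level in clone E3 was 4.24-fold lower than in WT (log2 -2.08, SE 0.23, edgeR adjusted p = 0.000154), and the log2 fold change in clone E5 was 0.09 (SE 0.22, edgeR adjusted p = 0.83). The clones differed by 2.17 on the log2 scale (E5 minus E3, SE 0.23, edgeR adjusted p = 7.78e-05). Slc3a2, which encodes the partner subunit of this antiporter and is named here after its values were seen, fell by 1.22 on the log2 scale in clone E3 (SE 0.19, edgeR adjusted p = 0.000975), from 762 ± 74.2 to 327 ± 74.2 CPM (SD, n = 3).

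Of the enzymes that assemble glutathione, Gclc, the catalytic subunit of the first step, was called in neither clone, at -0.07 in clone E3 and -0.21 in clone E5. Gclm, its modifier subunit, was at 39.1, 45.0 and 43.9 CPM in the WT libraries, 60.8, 71.4 and 64.5 CPM in clone E3 and 70.8, 58.6 and 45.6 CPM in clone E5. The WT libraries lay below all others, and the clones overlapped. Its log2 fold change was 0.62 in clone E3 (SE 0.15, edgeR adjusted p = 0.0106), a call lost without WT replicate 1 (0.56, edgeR adjusted p = 0.0521), and 0.45 in clone E5 (SE 0.15, edgeR adjusted p = 0.0569). Gss, which carries out the second step, fell by 0.49 in clone E3 (SE 0.14, edgeR adjusted p = 0.0228). This call was lost without WT replicate 2 or 3 or E3 replicate 1 or 2, at log2 fold changes of -0.46 to -0.40. Gsr, which regenerates reduced glutathione, was called higher in both clones, at 144 ± 9.10 CPM in WT cells, 210.3 ± 8.46 in clone E3 and 186 ± 22.5 in clone E5 (SD, n = 3). Its call in clone E5 was lost on leaving out any WT replicate or E5 replicate 1 or 2, at log2 fold changes of 0.28 to 0.41.

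The thioredoxin system, which reduces protein disulphides and peroxides, was higher in clone E3 at Srxn1 and Prdx1 and held no call in clone E5 against WT. Srxn1, which repairs over-oxidised peroxiredoxins, was at 84.8, 89.1 and 83.6 CPM in the WT libraries, 131, 134 and 126 CPM in clone E3 and 121, 102 and 84.7 CPM in clone E5. Clone E3 lay above all other libraries, with a log2 fold change of 0.60 (SE 0.12, edgeR adjusted p = 0.00471), and clone E5 overlapped WT. Prdx1, an abundant peroxiredoxin, was at 330.1, 338 and 487 CPM in clone E3 against 251 to 290.2 CPM in WT cells, a log2 fold change of 0.51 (SE 0.15, edgeR adjusted p = 0.0271) that was lost as a call without any one WT replicate (0.45 to 0.56, edgeR adjusted p = 0.0577 to 0.106). The highest value was that of replicate 3, and without that library the log2 fold change was 0.30 (edgeR adjusted p = 0.0126). Txn1, thioredoxin itself, had the highest mean level per kilobase of annotated exon in all 3 lines, with Gstp1 close to it in clone E5. Txn1 was at 361, 382 and 640 CPM in clone E3, again highest in replicate 3, and at 315 to 323 CPM in WT cells. It was not called (log2 fold change 0.53, edgeR adjusted p = 0.0616), and without that library its log2 fold change was 0.22. Txnrd1, the reductase that acts on thioredoxin, was at 368, 406 and 399 CPM in the WT libraries, 386, 425 and 313 CPM in clone E3 and 562, 514 and 445 CPM in clone E5. The E5 libraries lay above all others, with a log2 fold change against WT of 0.38 (SE 0.13, edgeR adjusted p = 0.0695).

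The heat map of single libraries shows where replicate 3 of clone E3 departs from its group.

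**Figure D3:**
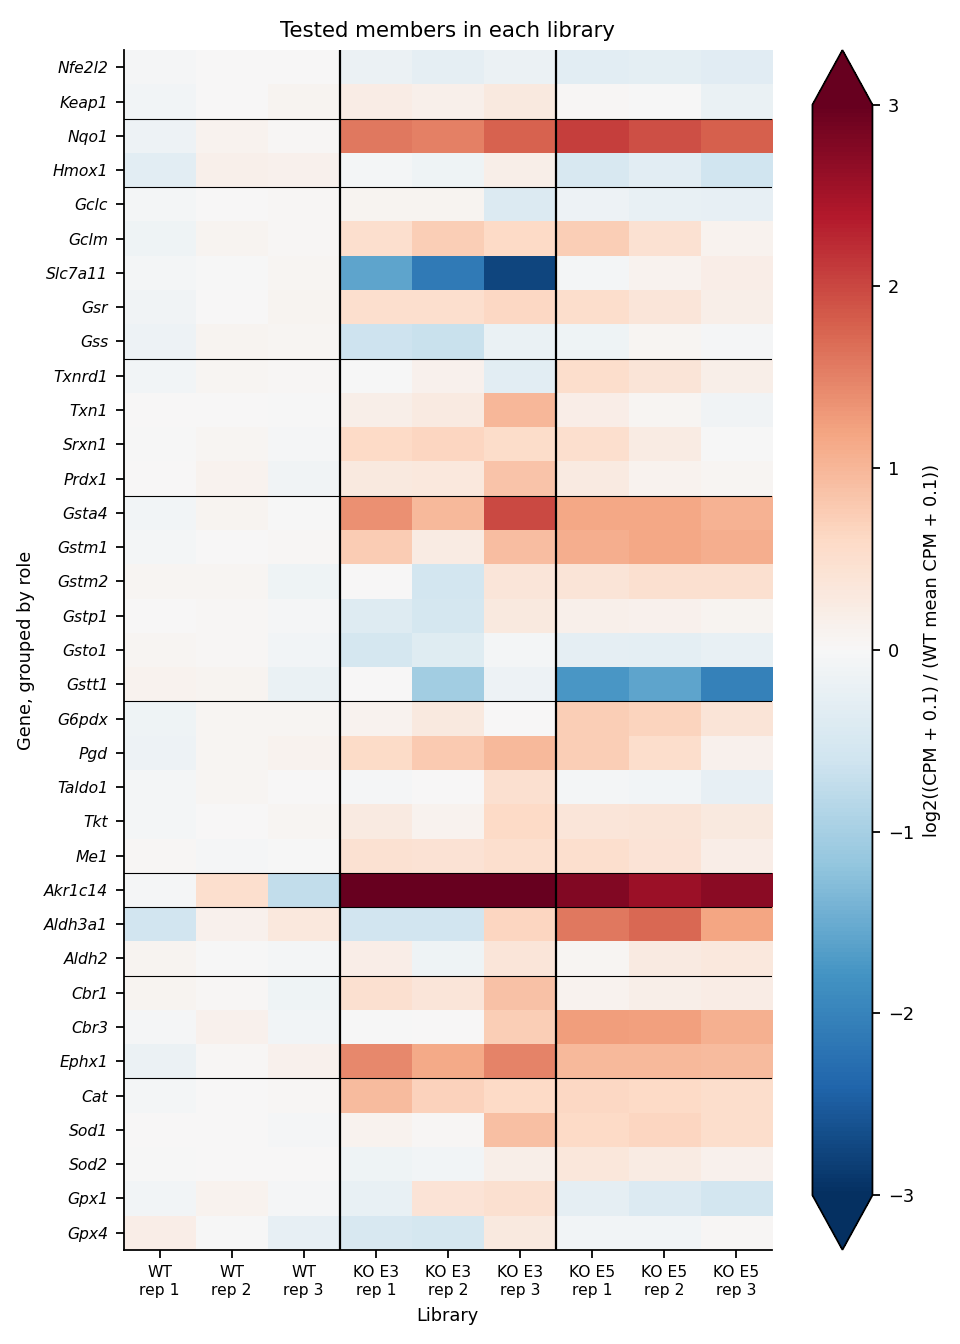
Log2 ratio of CPM to the WT mean, with 0.1 CPM added to both (colour, red above and blue below the WT mean), for the 35 tested members (y axis, grouped by role) in each of the 9 libraries (x axis). Nqo1, Gsta4, Gstm1, Ephx1, Cat and Akr1c14 are red in both clones, while Txn1, Prdx1, Taldo1 and Sod1 are reddest in replicate 3 of clone E3. Colours stop at a log2 ratio of -3 and 3, which Akr1c14 exceeds.

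Glutathione S-transferases join glutathione to electrophiles. Of the 6 members of this kind, Gsta4 and Gstm1 were called higher in both clones and Gstt1 was called lower in clone E5, where 15.7% (E3) and 8.96% (E5) of all tested genes were called higher and 11.7% (E5) lower. Gsta4 (ENSMUSG00000032348, chromosome 9 from 78090056 to 78116631), which acts on the lipid peroxidation product 4-hydroxynonenal, was at 11.6, 13.0 and 12.0 CPM in the WT libraries, 31.8, 24.0 and 48.1 CPM in clone E3 and 27.2, 27.4 and 25.4 CPM in clone E5. All KO libraries lay above WT, and the E3 libraries spread around those of E5. The fold change was 2.84 in clone E3 (log2 1.51, SE 0.21, edgeR adjusted p = 0.000509) and 2.19 in clone E5 (log2 1.13, SE 0.21, edgeR adjusted p = 0.0034). Without replicate 3, the log2 fold change in clone E3 was 1.19.

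Gstm1 (ENSMUSG00000058135, chromosome 3 from 107919571 to 107925289), a mu-class enzyme, was at 101, 106 and 106 CPM in the WT libraries, 178, 123 and 199.8 CPM in clone E3 and 222, 235 and 221 CPM in clone E5. The 3 lines did not overlap, and clone E5 was highest. The fold change was 1.60 in clone E3 (log2 0.68, SE 0.15, edgeR adjusted p = 0.00723) and 2.17 in clone E5 (log2 1.12, SE 0.15, edgeR adjusted p = 0.000545). Gstm2, Gstp1 and Gsto1 were called in neither clone, with log2 fold changes from -0.30 (Gsto1 in clone E3) to 0.45 (Gstm2 in clone E5). Without replicate 3 of clone E3, Gstp1 and Gsto1 became called in that clone, at -0.46 and -0.44. The mu-class genes are similar neighbours. How the authors' counting shared reads between such copies is not given in the sources used here, so their counts are uncertain.

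Gstt1 (ENSMUSG00000001663, chromosome 10 from 75619647 to 75634418), a theta-class enzyme, was low in all lines. It had 25, 23 and 18 counts in the WT libraries, 23, 8 and 18 in clone E3 and 3, 4 and 2 in clone E5. Clone E5 lay below all other libraries. It passed the filter only with its WT counts. Its log2 fold change in clone E5 was -2.83 (SE 0.48, edgeR adjusted p = 0.00211). The ratio of summed counts was 7.42-fold lower than WT, with a 95% exact interval of 3.68 to 16.9 that covers counting error only. The other theta-class genes of the same stretch of chromosome 10 are given after their values were seen. Gstt3 had 80, 66 and 96 counts in the WT libraries and 21, 26 and 28 in clone E5 (log2 fold change -1.70, SE 0.22, edgeR adjusted p = 0.000317), and Gstt2 had 17, 16 and 20 against 0, 0 and 4 (edgeR adjusted p = 0.00319). In clone E3, Gstt3 had 81, 71 and 80 counts and was not called. Gstt2 had 5, 6 and 7 counts there and was called lower, at -1.52 on the log2 scale (edgeR adjusted p = 0.0425). That call was lost without any one WT replicate or E3 replicate 1 or 2. In the mu-class stretch, Gstm7 had 60, 55 and 65 counts in the WT libraries, 100, 67 and 100 in clone E3 and 4, 2 and 4 in clone E5 (edgeR adjusted p = 1.34e-05), and Gstm4 fell in clone E3 by 1.11 on the log2 scale (edgeR adjusted p = 0.0037). Both genes were chosen after their values were seen.

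**Figure D4:**
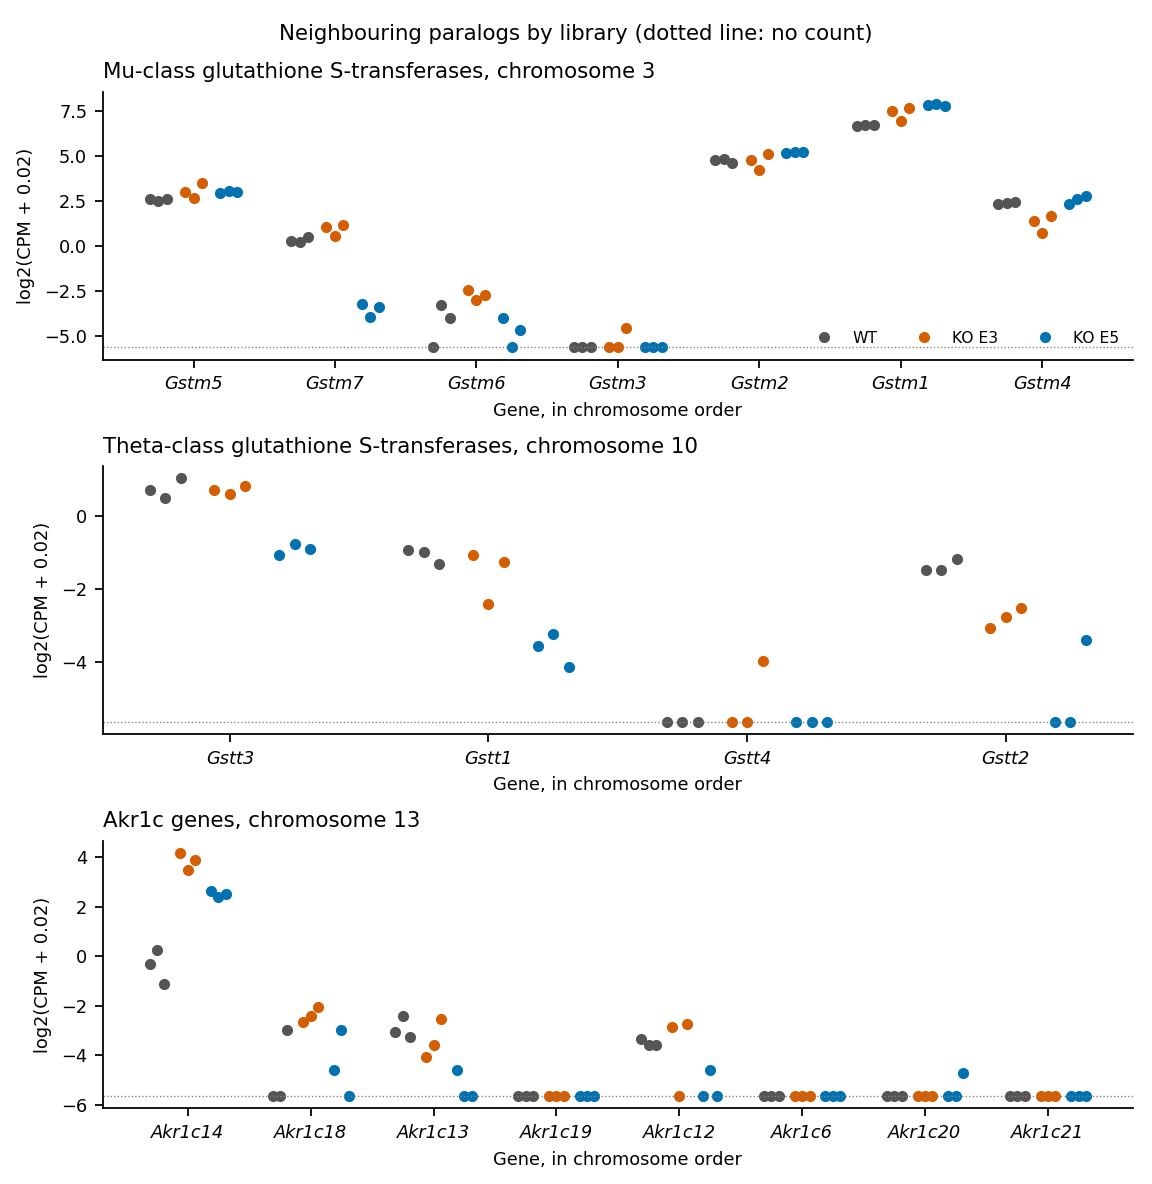
Log2 of CPM plus 0.02 (y axis) in each library of WT cells (grey), KO clone E3 (orange) and KO clone E5 (blue) for neighbouring genes in chromosome order (x axis): the Gstm genes, the Gstt genes and the Akr1c genes; points are libraries and the dotted line is a library with no count. Gstm1 is higher and Gstm7 lower in clone E5, the Gstt genes with counts in WT cells are lower in clone E5, and Akr1c14 is the one Akr1c gene above 1 CPM in any library.

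Akr1c14 (ENSMUSG00000033715, chromosome 13 from 4099011 to 4140688), an aldo-keto reductase that acts on steroids, had the largest rise of the tested members in each clone. It had 39, 56 and 21 counts in the WT libraries, 902, 522 and 666 in clone E3 and 283, 241 and 311 in clone E5, or 0.781, 1.18 and 0.443 CPM, 18.0, 11.0 and 14.6 CPM, and 6.10, 5.23 and 5.75 CPM. The 3 lines did not overlap, and clone E3 was highest. The fold change was 18.1 in clone E3 (log2 4.18, SE 0.30, edgeR adjusted p = 1.09e-05) and 7.09 in clone E5 (log2 2.83, SE 0.29, edgeR adjusted p = 8.43e-05). Clone E5 was lower than clone E3 by 1.36 on the log2 scale (SE 0.25, edgeR adjusted p = 0.00218). Per kilobase of exon it stayed low, at 0.152 CPM in WT cells, 2.76 in clone E3 and 1.08 in clone E5, ranks 34, 31 and 33 of the 42 members.

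The other Akr1c genes of this cluster did not reach the filter. Akr1c13, Akr1c12 and Akr1c18, members of the list, had at most 8, 6 and 10 counts in any library, and their counts summed over 3 libraries were 17, 10 and 5 in WT cells, 12, 12 and 25 in clone E3 and 1, 1 and 6 in clone E5. Akr1c20 had 1 count in all, and Akr1c6, Akr1c19 and Akr1c21 had none. Reads that these similar genes share with Akr1c14 could have been split between them, and an overlapping locus is annotated at Akr1c14, so its counts carry that uncertainty. Akr1b7, an aldose reductase relative, was also untested, with 22, 2 and 6 summed counts in WT cells, clone E3 and clone E5. Of the 6 further aldo-keto reductases tested, none was called in clone E3 and Akr1b8, named after its values were seen, was called lower in clone E5 at -0.30 (edgeR adjusted p = 0.0434), a call lost without any one WT or E5 replicate. The background was 30.5% called in clone E3 and 20.6% in clone E5, 11.7% lower there, and 6 genes are too few to set against it.

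Among the aldehyde dehydrogenases, Aldh3a1 (ENSMUSG00000019102, chromosome 11 from 61098363 to 61109247), a cytosolic enzyme of aromatic and lipid aldehydes, rested on few counts: 0, 3 and 4 in the WT libraries, 0, 0 and 6 in clone E3 and 16, 18 and 13 in clone E5. Clone E5 lay above all other libraries. Since Aldh3a1 passed the filter only through its E5 counts, its call as higher there is not independent of the filter. The log2 fold change in clone E5 was 2.67 (SE 0.84, edgeR adjusted p = 0.0458), and the ratio of summed counts to WT was 6.63 (95% exact interval 2.98 to 17.4, counting error only). The call was lost on leaving out any single WT or E5 replicate, with edgeR adjusted p-values of 0.0704 to 0.145. Aldh2, the mitochondrial enzyme that clears acetaldehyde, was at 249 ± 11.6 CPM in WT cells, 278 ± 46.3 in clone E3 and 290.5 ± 27.6 in clone E5 (SD, n = 3) and was called in neither. Aldh1a1 and Aldh1a3, retinaldehyde dehydrogenases, had at most 3 and 1 counts in a library and were not tested.

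The carbonyl reductases Cbr1 and Cbr3 lie near each other on chromosome 16 and differed in pattern. Cbr1 was at 11.6, 11.3 and 9.98 CPM in the WT libraries, 15.3, 14.2 and 20.3 CPM in clone E3 and 11.8, 12.3 and 12.8 CPM in clone E5, with a log2 fold change of 0.60 in clone E3 (SE 0.14, edgeR adjusted p = 0.00945) and 0.17 in clone E5 (edgeR adjusted p = 0.461). Cbr3 (ENSMUSG00000022947, chromosome 16 from 93480103 to 93487878) was at 3.59, 4.02 and 3.46 CPM in the WT libraries, 3.66, 3.72 and 6.27 CPM in clone E3 and 8.98, 8.74 and 7.88 CPM in clone E5. Its fold change in clone E5 was 2.31 (log2 1.21, SE 0.20, edgeR adjusted p = 0.00194), with every E5 library above all others. In clone E3 its log2 fold change was 0.30 (edgeR adjusted p = 0.297), and -0.002 without replicate 3, the highest of that clone.

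Ephx1 (ENSMUSG00000038776, chromosome 1 from 180803775 to 180848469), the microsomal epoxide hydrolase, was at 9.90, 11.6 and 12.2 CPM in the WT libraries, 30.9, 24.8 and 31.5 CPM in clone E3 and 22.2, 22.2 and 21.8 CPM in clone E5. The 3 lines did not overlap. The fold change was 2.59 in clone E3 (log2 1.37, SE 0.12, edgeR adjusted p = 4.01e-05) and 1.97 in clone E5 (log2 0.98, SE 0.12, edgeR adjusted p = 0.000293), which fell just short of the fold threshold. Akr1c14, Ephx1, Gclm, Txnrd1, Slc7a11 and Gpx1 are annotated as overlapping another locus, and the strand setting of the counting is not given in the sources used here.

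The 5 members grouped under NADPH supply were G6pdx, Pgd, Me1 and, from the non-oxidative branch of the pentose phosphate pathway, Taldo1 and Tkt. Of these, 2 were called higher in clone E3 and 2 in clone E5, where 15.7% and 8.96% of all tested genes were. None was called lower. Pgd, of the oxidative pentose phosphate pathway, was at 189, 218 and 225 CPM in the WT libraries, 312, 363 and 412 CPM in clone E3 and 349, 305 and 229 CPM in clone E5, at log2 fold changes of 0.78 (SE 0.16, edgeR adjusted p = 0.00479) and 0.48 (SE 0.16, edgeR adjusted p = 0.0592). G6pdx, which opens that pathway, was at 124, 141 and 141 CPM in the WT libraries, 145, 165 and 137 CPM in clone E3 and 224, 214 and 178 CPM in clone E5. Clone E5 lay above all other libraries, at a log2 fold change of 0.60 (SE 0.12, edgeR adjusted p = 0.00519), and WT and clone E3 overlapped. Me1, the cytosolic malic enzyme, was called in both, at 75.2 to 79.6 CPM in WT cells, 104 to 109 CPM in clone E3 and 87.9 to 109 CPM in clone E5, and its call in clone E5 was lost without any one WT replicate or E5 replicate 1 or 2 (log2 0.30 to 0.40). Taldo1 and Tkt, of the non-oxidative branch, were called in neither clone, with log2 fold changes of -0.12 to 0.35.

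Among the enzymes that remove superoxide and peroxides, Cat (catalase) was called higher in both clones. It was at 39.4, 41.7 and 42.2 CPM in the WT libraries, 79.6, 66.0 and 62.4 CPM in clone E3 and 62.8, 62.6 and 59.3 CPM in clone E5, at log2 fold changes of 0.75 (SE 0.11, edgeR adjusted p = 0.000535) and 0.58 (SE 0.11, edgeR adjusted p = 0.00308). No other member of this group was called against WT. Sod1, the cytosolic superoxide dismutase, was at 165, 171 and 158 CPM in clone E5 against 107 to 111 CPM in WT cells, at a log2 fold change of 0.59 (SE 0.19, edgeR adjusted p = 0.0562). In clone E3 it was at 118, 112 and 203 CPM, and its log2 fold change of 0.40 was 0.07 without replicate 3. Gpx4, the glutathione peroxidase of membrane lipids, was at 113, 109 and 193 CPM in clone E3 against 133 to 181 CPM in WT cells. It was not called there (-0.18, edgeR adjusted p = 0.537), but was called at -0.50 without replicate 3. That library held the highest ribosomal-protein share and the highest E3 level of most tested members. Txn1, Prdx1, Gsta4, Taldo1, Sod1, Gpx4, Nqo1, Gstm1 and Gstp1 were among these. Gclc, Slc7a11, Txnrd1, Srxn1, G6pdx and Cat had their lowest E3 level there. The part of this share in the members' levels was not tested. Sod2 and Gpx1 were called in neither clone, and Gpx3, with at most 2 counts in a library, was not tested.

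Clone E5 was compared directly with clone E3 in the same fit. Of the 35 tested members, 12 were called, beside a background of 31.9%: 6 were higher in clone E5, where 14.7% of all tested genes were, and 6 were lower, where 17.2% were. Aldh3a1, Slc7a11, Cbr3, G6pdx, Gss and Txnrd1 were higher in clone E5. Akr1c14, Gstt1, Gpx1, Hmox1, Cbr1 and Ephx1 were lower. Past the fold threshold were Slc7a11 and Aldh3a1, higher, and Akr1c14 and Gstt1, lower, 4 in all. Aldh3a1 was tested only because of its counts in clone E5. The background was 11.0%, with 3.49% higher and 7.52% lower. The libraries of the 2 clones did not overlap for 20 of the 35, 9 higher in clone E5 and 11 lower, where 44.6% of all tested genes did so, 21.8% higher and 22.7% lower. The number called was 22 without E3 replicate 3, where the background was 44.1%, and 6 to 8 without E3 replicate 1 or any single E5 replicate, where it was 21.7% to 29.1%. The call of Aldh3a1 was lost without E3 replicate 1 or 2 or E5 replicate 1 or 2 (2.27 to 2.81, edgeR adjusted p = 0.0651 to 0.0832). Without E3 replicate 3, clone E3 had no count of Aldh3a1, and the fitted difference then, 6.99, depends on the prior count. The calls of Cbr3, Slc7a11, Akr1c14 and Gstt1 were kept in every setting tried that tested these genes.

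The remaining calls between the clones were small or unsteady. Gpx1, a cytosolic glutathione peroxidase, was at 46.2, 71.8 and 76.0 CPM in clone E3 and 45.2, 40.9 and 37.1 CPM in clone E5, a log2 difference of -0.66 (SE 0.17, edgeR adjusted p = 0.014), and its call was lost without E5 replicate 3 (-0.58). Txnrd1 differed by 0.44, G6pdx by 0.46, Gss by 0.45, Cbr1 by -0.43, Hmox1 by -0.46 and Ephx1 by -0.40. These 6 calls were lost on leaving out single libraries: WT replicate 2 or 3, E3 replicate 1 or E5 replicate 1 or 2 for Txnrd1, E5 replicate 1 or 2 for G6pdx, and E3 replicate 1 or 2 or E5 replicate 2 or 3 for Gss. The same held on leaving out E3 replicate 3 (-0.25) or any WT or E5 replicate for Cbr1, E3 replicate 1 or E5 replicate 1 or 3 for Hmox1, and E3 replicate 1 or any E5 replicate for Ephx1. The edgeR adjusted p-values on leaving out a library that ended the call ran from 0.0505 (Txnrd1 without WT replicate 3) to 0.122 (Hmox1 without E5 replicate 3).

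The wider lists, also chosen with earlier results of these data known, held 119 tested genes of the same kinds that are not members. In clone E3, 62 of them were called against WT, 36 higher and 26 lower, beside the background of 30.5%, 15.7% higher and 14.7% lower. In clone E5, 33 were called, 13 higher and 20 lower, beside the background of 20.6%, 8.96% higher and 11.7% lower. Their median log2 fold change was 0.10 in clone E3 and -0.01 in clone E5. By list, the further NRF2 targets held 9 higher and 8 lower calls of 26 in clone E3 and 5 and 3 in clone E5. Of the 8 further carbonyl reductases and hydrolases, 5 were called higher in clone E3 and none lower, and none was called in clone E5. Without E3 replicate 3 the count over all these lists in clone E5 was 65, where the background was 42%, and without WT replicate 2 it was 21, where the background was 11.9%.

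Genes grouped as glutathione turnover held calls in both directions. They cover glutathione breakdown and cysteine supply, and also the glyoxalase genes Glo1 and Hagh. In clone E3, 9 of 11 were called, 4 higher and 5 lower, and in clone E5, 1 was called higher and 4 lower. The background was 15.7% higher and 14.7% lower in clone E3 and 8.96% higher and 11.7% lower in clone E5. Cth, which makes cysteine from cystathionine, was at 121, 138 and 129 CPM in the WT libraries and 18.5, 15.9 and 17.5 CPM in clone E3, a fall of 2.90 on the log2 scale (SE 0.26, edgeR adjusted p = 3.83e-05), while clone E5 spread from 53.2 to 124 CPM and was not called. Cbs, the enzyme before it, was under 3 CPM and went the other way in clone E3 at 1.46 (edgeR adjusted p = 0.00118), and was lower in clone E5 at -1.91. Oplah, which recycles 5-oxoproline to glutamate, was at 68.8, 71.0 and 72.5 CPM in the WT libraries, 87.5, 89.6 and 95.5 CPM in clone E3 and 2.20, 2.32 and 2.42 CPM in clone E5, or 30.5-fold lower than WT. Ggt1, the gamma-glutamyl transferase that starts glutathione breakdown at the cell surface, had 234, 161 and 164 counts in the WT libraries, 149, 88 and 140 in clone E3 and 1, 0 and 4 in clone E5. Anpep, an aminopeptidase that acts after it, was at 11.6 to 13.2 CPM in WT cells, 3.23 to 4.06 CPM in clone E3 and 45.8 to 47.7 CPM in clone E5, lower in one clone and higher in the other.

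Further genes on the wider lists were past the fold threshold in at least 1 clone. Abcc3, an exporter of conjugates, had 380, 371 and 354 counts in the WT libraries and 9, 10 and 8 in clone E3, and was at 5.40 to 6.60 CPM in clone E5 against 7.47 to 7.80 CPM in WT cells. Mgst1, a microsomal glutathione transferase, had 34, 28 and 19 counts in the WT libraries, 204, 159 and 254 in clone E3 and 29, 32 and 32 in clone E5. Its relative Mgst3 was at 24.5 to 27.9 CPM in WT cells and 48.0 to 63.9 CPM in clone E5, a log2 fold change of 1.08 (SE 0.21, edgeR adjusted p = 0.00446). Idh1, a cytosolic source of NADPH, was at 99.1 to 108 CPM in WT cells and 304, 227 and 311 CPM in clone E3, a log2 fold change of 1.45 (SE 0.16, edgeR adjusted p = 0.000138), and was also called in clone E5 at 0.63, a call lost without WT replicate 1 or 2 or E5 replicate 1 or 2. Aldh1l2, a mitochondrial folate enzyme that makes NADPH, fell by 2.13 on the log2 scale in clone E3. Sesn3, a stress-induced sestrin, had 345, 267 and 282 counts in the WT libraries, 954, 786 and 374 in clone E3 and 0 in each E5 library, at least 302-fold lower than WT when 3 counts over the 3 libraries are taken as the floor. Clone E3 was higher than WT by 1.25 on the log2 scale (SE 0.28, edgeR adjusted p = 0.0116), a call lost without WT replicate 2 (edgeR adjusted p = 0.0508).

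In WT cells the levels per kilobase ran from 145 CPM for Txn1, 138 for Gstp1 and 90.9 for Gpx4, none of them called in either clone, down to 0.0208 for Aldh3a1, the lowest of the tested members. These levels divide by the merged exons of all annotated transcripts, so the order between genes depends on that length. The SDs of Txn1 (145 ± 1.93) and Gstp1 (138 ± 2.95) in WT cells did not overlap, whereas in clone E3, at 209.6 ± 70.6 and 123 ± 39.4, and in clone E5, at 151 ± 15.8 and 150.0 ± 3.12, they did. Both genes were highest in replicate 3 of clone E3, and Txn1 was above Gstp1 per kilobase within each E3 library. Within the E5 libraries the order varied. Gstm1 moved from rank 9 in WT cells to rank 5 for clone E3 and rank 3 for clone E5. Slc7a11 moved from rank 25 to rank 33 for clone E3 and rank 28 for clone E5. Its mean level in clone E5, 6.122 CPM per kilobase, was not below the 5.765 of WT cells.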

How the data were processed

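RNA-seq was analysed for 9 libraries of cultured LLC cells, with 3 for each of WT, KO clone E3 and KO clone E5, described in the study's methods as independent biological replicates. Per the submitters' processing notes, reads were checked with FastQC, trimmed with Trimmomatic and aligned to GRCm39 with STAR. The authors deposited raw counts per gene, without normalization or pooling. The tool that counted reads, whether it used strand, and the annotation release are not given in the sources used here, and a setting that ignores strand would mix the reads of overlapping genes.

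The deposited counts were filtered with filterByExpr (minimum count 10, minimum total 15) and scaled by TMM, and the 3 lines were fitted in 1 model with edgeR 4.0.16 in R 4.3.3. The study used DESeq2, tried here as an alternative (version 1.42.0). Each standard error divides the absolute log2 fold change by the root of its F statistic. The coefficient of variation between replicates was 14.8%. CPM values use TMM-scaled library sizes. CPM per kilobase divides by the merged exons of all transcripts of each gene in the GENCODE annotation of GRCm39. That length, 8648 bases for Sod1, can exceed that of the transcript expressed, so ranks between genes are approximate. Counting error is small above a few CPM at these depths. Intervals and the floor of 3 counts cover counting error only. The test was also tried on simulated data with known changes. The simulation held no outlying library such as replicate 3 of clone E3, and no result here rests on it.

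The members and lists were chosen with earlier results of these data known. Members past the fold threshold were described by library, others by counts, ranges or means. Of the further genes, the NRF2 regulators, the Akr1c cluster and, in each direction against WT, the 3 with the largest changes past the fold threshold above an average log2 CPM of 0 were named by rule. Slc3a2, Gstm4, Gstm7, Gstt2, Gstt3 and Akr1b8 were named after their values were seen, and for the further genes named, the fits without a library were added then too. Replicate pairs within a line differed by more than sampling noise. Libraries were also left out in turn, and scaling, filter, tool, groups fitted and a replicate block were varied.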

Additional observations from a re-analysis of the deposited data

Results flagged for a closer look

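The values here were picked out because the 2 KO clones differed from each other in edgeR's quasi-likelihood test (adjusted p under 0.05 over all genes, log2 difference of clone E5 minus clone E3, n = 3 libraries each). Of the 35 tested members, 12 differed, where 31.9% of all tested genes did. Higher in clone E5 were Aldh3a1 (2.86), Slc7a11 (2.17), Cbr3 (0.91), G6pdx (0.46), Gss (0.45) and Txnrd1 (0.44). Lower in clone E5 were Gstt1 (-2.43), Akr1c14 (-1.36), Gpx1 (-0.66), Hmox1 (-0.46), Cbr1 (-0.43) and Ephx1 (-0.40).

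Of the 30 further genes named and tested, 20 differed, but many of these genes were named for large changes against WT or after their values were seen, so the count is not comparable with that share. Among the regulators of NRF2 these were Nfe2l1 (0.74), Gsk3b (0.71) and Mafg (0.35), higher in clone E5, and Bach2 (-2.24) and Dpp3 (-0.54), lower. Among the enzymes and transporters, Abcc3 (4.94), Anpep (3.71), Cth (2.41), Aldh1l2 (1.63), Gstm4 (1.30), Slc3a2 (0.83) and Mgst3 (0.65) were higher in clone E5. The call of Mgst3 was lost without WT replicate 2 or 3, E3 replicate 1 or 2, or E5 replicate 1 or 2, and that of Gsk3b without E5 replicate 2 or 3. Without E3 replicate 3, Mgst3 differed by 0.98. Idh1 (-0.83), Gstt3 (-1.66), Mgst1 (-2.77), Cbs (-3.37), Gstm7 (-4.73) and Oplah (-5.29) were lower. Ggt1 was lower by a fitted -6.18 on 1, 0 and 4 counts in clone E5, a 77.4-fold lower ratio of summed counts with a 95% exact interval of 32.9 to 239.7. The fitted value of Sesn3, -12.5, rests on 0 counts in clone E5 and depends on the prior count, and the floor of 3 counts gives at least 723-fold lower. These differences are between 2 clones and cannot be told apart from clonal variation.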

How the results depend on the processing

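Of the 41 called member values over the 3 comparisons, 25 were called under every alternative that tested them (23 under all 15, while Gstt1 was not tested by each filter or subset), 16 lost the call under at least 1 and none changed sign. Of the 64 uncalled values, 33 became called under at least 1 alternative, 25 of them in the fit without replicate 3 of clone E3. The number of members called in clone E5 against WT (14, background 20.6%) was 25 with only the 2 groups compared (background 46.8%), 9 with the replicate block (15.8%) and 9 to 24 on leaving out a library (11.9% to 42%), and that of further genes (33) was 71 with only the 2 groups and 21 to 65 on leaving out a library. Between the clones, 12 members were called (31.9%), 7 with only the 2 groups compared (22%) and 6 to 22 on leaving out a library (21.7% to 44.1%), and the 4 past the fold threshold were 2 with at least 10 counts in every library, a filter that does not test Aldh3a1 or Gstt1. The number of members called in clone E3 (15, background 30.5%) stayed within 1.5 times, at 13 to 19, as did the counts past the fold threshold against WT. Its background moved more, from 16.7% with no filter on low counts (17 called) to 43.2% without E3 replicate 3 (19 called). Without WT replicate 2 it was 19.3% (13 called). The counts by direction moved more. In clone E3, members called lower (2) were 6 without E3 replicate 3 and 1 to 2 on leaving out any other library or with the 2 groups. In clone E5, those called higher (11) were 19 with the 2 groups and 18 without E3 replicate 3, and those called lower (3) were 6 in both of these and 1 with the block or without WT replicate 2 or 3 or any single E5 replicate. Between the clones, those higher (6) ran from 2 to 13 and those lower (6) from 2 to 9. In the main fit the background was 14.7% lower in clone E3 and 8.96% higher and 11.7% lower in clone E5. Between the clones it was 14.7% higher and 17.2% lower. Backgrounds by direction were not computed for the alternatives, where the background in either direction moved too. Whether these shifts are particular to the members was therefore not tested. With DESeq2, 18 members were called in clone E3 (background 34.2%), 19 in clone E5 (25.2%) and 16 between the clones (35.8%). Replicate numbers did not pair the samples (correlations of same-numbered deviations -0.29 to 0.12), and under the replicate block the called members were 14 in clone E3 (background 25.1%) and 10 between the clones (26.6%).

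Signs changed only among uncalled values. In clone E3, Hmox1 was 0.00 and ran from -0.014 to 0.012 (DESeq2 -0.001, DESeq2 size factors -0.001, no filter -0.014, at least 10 counts 0.012, 2 groups 0.011, block 0.01). There, at least 10 counts and the 2 groups gave 0.007 and 0.007 for Gstm2 and 0.007 and 0.006 for Sod2, and between the clones Tkt was -0.011 with at least 10 counts. On leaving out a library, signs changed in clone E3 for Aldh3a1 (-4.31 to 0.42), Cbr3 (-0.002 to 0.43), Gclc (-0.15 to 0.075), Gstm2 (-0.24 to 0.20), Hmox1 (-0.14 to 0.072), Sod2 (-0.11 to 0.054), Taldo1 (-0.016 to 0.27) and Txnrd1 (-0.17 to 0.051). In clone E5 they changed for Gpx4 (-0.15 to 0.072), Gss (-0.11 to 0.011), Keap1 (-0.11 to 0.015) and Txn1 (-0.024 to 0.13), and between the clones for Aldh2 (-0.061 to 0.18), Gpx4 (-0.001 to 0.47), Gsto1 (-0.065 to 0.18), Me1 (-0.16 to 0.002) and Tkt (-0.093 to 0.17). The causes were not tested.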
